A study of Mus musculus with 141 samples.

Results

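Interleukin 1 beta and interleukin 21 were each added, in separate cultures, to helper T cells driven toward the Th17 state, and the RNA of the cultures was compared at 48 h. The comparison holds 6 of the 141 libraries of the series, 3 for each cytokine, and they were picked by their labels alone, with no measured value used. The cells were naive CD4 T cells (CD4+CD25-CD44lo), sorted from C57BL/6 spleen and lymph nodes, with no genetic change named. The sources used here do not give the age of the mice. Every culture was stimulated through plate-bound aCD3 at 0.5 µg/ml and aCD28 at 5 µg/ml, and received IL6 at 20 ng/ml and TGFb at 1 ng/ml. The IL1b cocktail held IL1b at 10 ng/ml besides these, and the IL21 cocktail held IL21 at 20 ng/ml in its place. A cocktail with both cytokines (3 libraries at 48 h) and the 2 single cocktails at 24 and 72 h (3 libraries each) served as further comparisons. The 3 libraries of a group come from sample courses numbered 4, 5 and 6, and are biological replicates per the labels. Which mice or cultures they stem from is not stated, so p-values measure a spread between libraries that may be technical. In the main fit that spread and each SE came from all 84 libraries fitted, not only from the libraries compared. These are in vitro cultures of sorted cells, and in such bulk RNA fewer cells of a type and less RNA per cell cannot be told apart.

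As background, Th17 cells are helper T cells that make the cytokines IL-17A, IL-17F and IL-22. IL-1β binds the IL-1 receptor, which signals through the adaptor MyD88 and IRAK kinases to NF-κB, a family of transcription factors held in the cytoplasm by IκB proteins. IL-21 binds its own receptor chain paired with the common γ chain shared by IL-2 family receptors, and signals through the kinases JAK1 and JAK3 mainly to STAT3. STAT3 is also the main mediator of IL-6, which was present in both cocktails.

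The 6 libraries held 21.2 to 32.2 M reads, and levels are given as CPM (reads of a gene per 1 M reads) scaled between libraries by TMM factors. A difference is that of log2(CPM + 0.5), which understates the change of genes near 1 CPM, and is positive where the IL1b cocktail was higher. Genes were called at a Benjamini-Hochberg adjusted p under 0.05 from limma, fitted on 84 libraries in 28 groups of courses 4 to 6. Markers placed the cells where the labels do: all 8 CD4 T cell markers were well expressed, with summed levels of 2320 to 2550 CPM in the IL1b cocktail and 2540 to 2990 CPM in the IL21 cocktail. Of the marker lists for other cells, 12 of 13 myeloid, 9 of 11 erythroid and platelet, 7 of 8 mast cell and basophil, 6 of 8 NK and gamma-delta T cell and 6 of 10 B cell genes stayed under 1 CPM in all 6 libraries. Of the 2 CD8 T cell genes 1 stayed under 1 CPM. The other, Cd8b1, was at 3.46 to 5.06 CPM in the IL1b cocktail and 3.03 to 3.8 CPM in the IL21 cocktail. The summed B cell markers were at 13.7 to 16.7 CPM in the IL1b cocktail and 11.3 to 14.8 CPM in the IL21 cocktail, mostly from Ighm. A library's root mean square log2 distance from its group mean was 0.156 to 0.246 in the 6, with a median of 0.23, against 0.097 to 0.277 and a median of 0.151 over the 84. By this median the 6 spread more than the libraries whose pooled spread set the SEs and p-values.

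At 48 h, 362 of 14859 genes tested were called, which is 2.44%. Of these, 111 genes (0.747%) were higher with IL1b and 251 genes (1.69%) were higher with IL21. This split was similar by edgeR (101 and 197) and DESeq2 (104 and 217). It was gone without course 5 (85 and 90) and without the IL1b library of course 5 (89 and 89). Large changes were split evenly: 46 of the called genes were more than 1 log2 unit higher with IL1b and 45 more than 1 log2 unit lower. The median log2 difference over all genes tested was -0.01. For 300 of the 362 called genes (82.9%) no library of either cocktail overlapped with the other cocktail, against 8.9% of all genes tested. The number of calls rested on the libraries and the fit: it was 7 when only the 6 libraries compared were fitted, and 127 without course 6. Those 7 genes were Fam107a, Nfkbiz, Pou2f2, Zc3h12a, Ildr1 and Xkrx, higher with IL1b, and Pdcd1, lower. Fam107a and Zc3h12a lie outside the naming rule and were chosen after their values were seen.

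**Figure D1:**
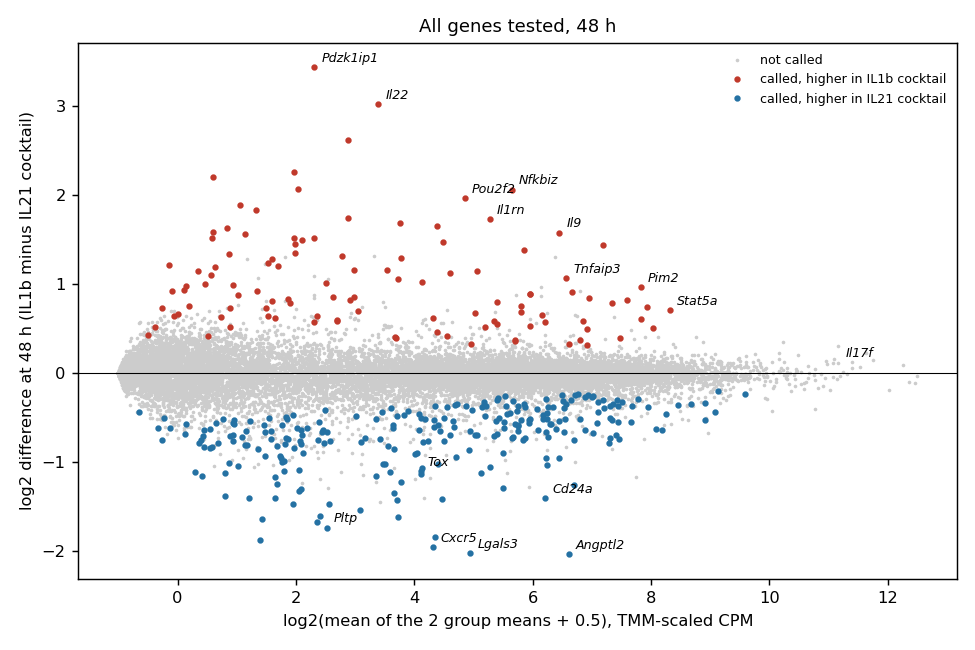
Log2 difference at 48 h (IL1b minus IL21 cocktail, vertical axis) against mean level (log2 of TMM-scaled CPM plus 0.5, horizontal axis) for 14859 genes. Red points are the 111 genes called higher with IL1b and blue points the 251 called higher with IL21. The 2 highest points are Pdzk1ip1 (3.44) and Il22 (3.02), while Il17f, at the right, lies near 0 and was not called.

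The gene with the largest rise, by the rule that named 15 genes in each direction, was Pdzk1ip1, which encodes a small membrane protein. Its level in courses 4, 5 and 6 was 2.9, 7.3 and 16 CPM with IL1b and 0.0899, 0.277 and 0.252 CPM with IL21. The log2 difference was 3.44 ± 0.39 (SE, n = 3 per cocktail; adjusted p = 2.47e-09, limma). With only the libraries compared in the fit, the adjusted p of Pdzk1ip1 was 0.123 by limma. All 3 IL1b libraries were above all 3 IL21 libraries, although the IL1b libraries spread widely, with course 4 lowest.

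Il22 was next. It encodes interleukin 22, which acts on epithelial cells at barrier surfaces. Il22 stood at 11.7, 15.4 and 27.1 CPM with IL1b and at 0.749, 2.06 and 2.65 CPM with IL21. The difference was 3.02 ± 0.31 (SE, n = 3; adjusted p = 5.29e-11, limma), again with no overlap and with course 4 lowest in each cocktail. With only the libraries compared in the fit, the adjusted p of Il22 was 0.094 by limma. The near-identical copy Iltifb is listed in the table at 0 or close to 0, and the sources used here do not say how reads that fit both copies were counted.

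Lum (the matrix proteoglycan lumican), Ermn (ermin, an actin-binding protein) and Myh11 (a smooth muscle myosin heavy chain) rose from low levels. Lum was at 3.36, 11.3 and 22.3 CPM with IL1b and at 0.27, 2.06 and 1.77 CPM with IL21. Ermn was at 1.66, 4.3 and 12.7 CPM with IL1b and at 0.18, 0.751 and 0.967 CPM with IL21. Myh11 was at 9.51, 9.7 and 12.5 CPM with IL1b and at 1.32, 3.95 and 3.87 CPM with IL21. Lum was not called by DESeq2 (adjusted p = 0.45), and its adjusted p was 7.87e-05 to 0.544 over 21 alternatives. Within these 3 genes the IL1b libraries of Lum and Ermn differed among themselves more than those of Myh11.

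Pou2f2 rose with little spread between courses. It encodes the octamer-binding factor OCT2, best known from B cells. Pou2f2 was at 38.5, 46.1 and 51.8 CPM with IL1b and at 9.56, 13.9 and 10.5 CPM with IL21. The difference was 1.96 ± 0.17 (SE, n = 3; adjusted p = 2.26e-13, limma). No B cell marker was called at 48 h by limma or by edgeR, 1 of 10 was called by DESeq2, and 1 of 10 had an unadjusted p below 0.05. Ildr1, an immunoglobulin-like receptor gene, was as tight: 34.4, 32.8 and 29.7 CPM with IL1b against 10.1, 11.1 and 13 CPM with IL21.

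Il9 encodes interleukin 9, the product that defines Th9 cells. Its level was 175, 84.8 and 130 CPM with IL1b and 48.4, 25.5 and 57.2 CPM with IL21. The difference was 1.58 ± 0.34 (SE, n = 3; adjusted p = 0.00255, limma), and Il9 was not called by DESeq2 (adjusted p = 0.653, the highest of 21 alternatives, against 7.9e-05 at the lowest). Here course 5, not course 4, was lowest in each cocktail. Kit, the receptor of stem cell factor and a mast cell marker, was at 5.51, 4.34 and 5.96 CPM with IL1b and at 2.22, 1.19 and 1.51 CPM with IL21. Of the other 7 mast cell and basophil markers, 6 were at 0 in all 6 libraries, and none reached the level needed for the test.

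The remaining genes of the 15 were Il1rn and Nfkbiz, described with their pathways below, and Sh3bp4, Alcam, Tpbg and Rac3. Alcam encodes the adhesion molecule CD166, a ligand of CD6, and was at 13.2, 34.5 and 47.4 CPM with IL1b and at 5.94, 12.1 and 8.58 CPM with IL21. Sh3bp4, an endocytic adaptor gene, was at 15.9, 17.5 and 27.7 CPM with IL1b and at 5.73, 5.38 and 6.31 CPM with IL21. Rac3 encodes a small GTPase of the Rac family. Rac3 rose by 1.51 ± 0.21 on the log2 scale (SE, n = 3), and Tpbg (trophoblast glycoprotein) by 1.51 ± 0.32. Across the 15 genes the log2 difference ran from 1.45 to 3.44, with a median of 1.73.

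**Figure D2:**
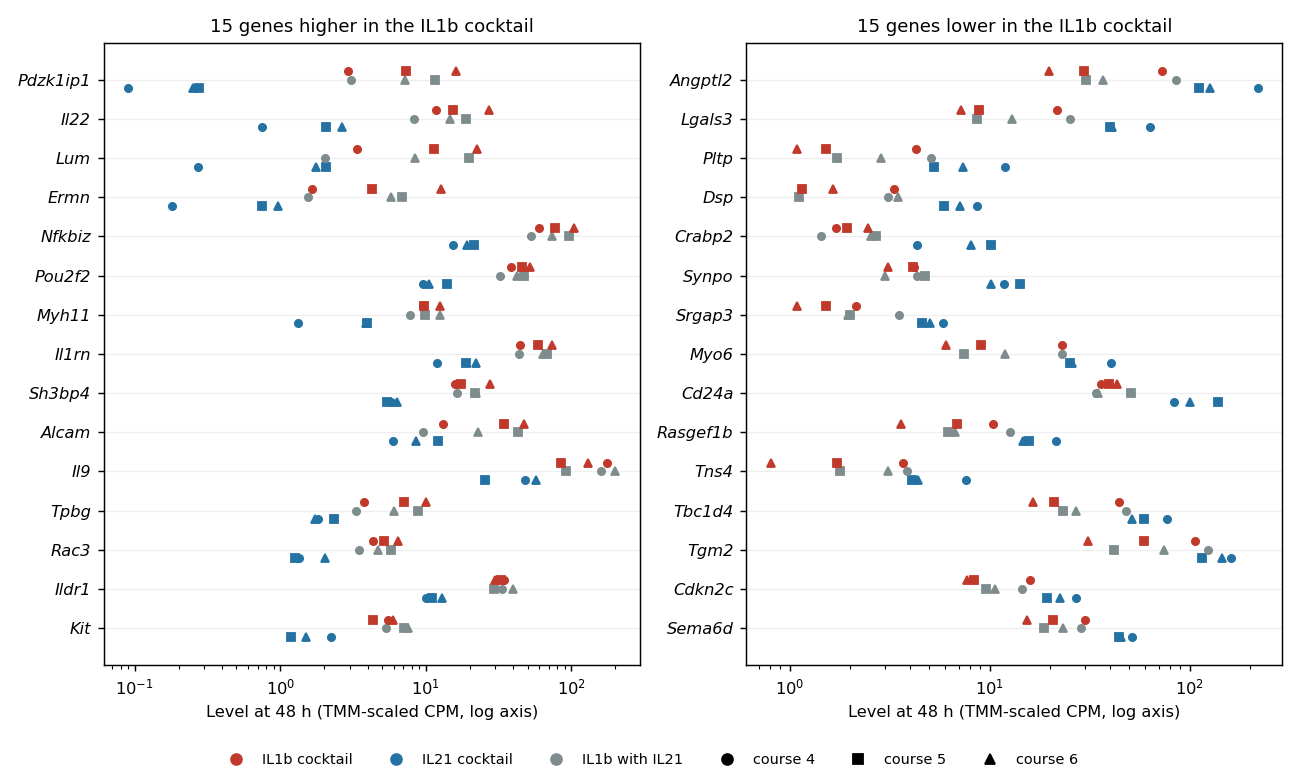
Level at 48 h of each of 30 named genes in every library (horizontal log axis, TMM-scaled CPM; colour is the cocktail, marker shape the course). In each of the 30 genes the red points (IL1b) and blue points (IL21) do not overlap, which the naming rule required, and the grey points (both cytokines) lie mostly among the red.

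On the other side, Angptl2 and Lgals3 had the largest falls with IL1b relative to IL21. Angptl2 encodes the secreted protein angiopoietin-like 2. It was at 72.9, 29.8 and 19.9 CPM with IL1b and at 220, 112 and 126 CPM with IL21, a difference of -2.04 ± 0.39 (SE, n = 3; adjusted p = 0.000308, limma). Lgals3 encodes galectin-3, a β-galactoside-binding lectin. Lgals3 was at 21.8, 8.82 and 7.19 CPM with IL1b and at 63.4, 39.9 and 40.8 CPM with IL21, a difference of -2.02 ± 0.33 (SE, n = 3; adjusted p = 2.03e-05, limma). For these genes course 4 was the highest library in each cocktail. The adjusted p by limma on only the libraries compared was 0.395 for Angptl2 and 0.255 for Lgals3.

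Cd24a, which encodes the surface glycoprotein CD24, was lowest in course 4 in each cocktail and had little spread with IL1b. Its level was 36, 39.4 and 43.3 CPM with IL1b and 83.6, 139 and 101 CPM with IL21, and the difference was -1.41 ± 0.17 (SE, n = 3; adjusted p = 1.42e-08, limma). Crabp2, a carrier of retinoic acid, was at 1.7, 1.94 and 2.46 CPM with IL1b and at 4.32, 10.2 and 8.07 CPM with IL21. Tgm2, the gene of transglutaminase 2, was at 106, 59.2 and 31.2 CPM with IL1b and at 162, 115 and 145 CPM with IL21. The IL1b libraries of Tgm2 thus spanned a wide range that ended just under the lowest IL21 library.

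Of the other lower genes, Dsp (desmoplakin, a protein of cell junctions) differed by -1.68 ± 0.24, Synpo (synaptopodin, an actin-associated protein) by -1.54 ± 0.23, Myo6 (the motor myosin VI) by -1.41 ± 0.41 and Tns4 (a tensin) by -1.30 ± 0.31 (log2 ± SE, n = 3 per cocktail). Myo6 was the least firm of these 4, with an adjusted p of 0.0416 by limma and 0.141 by edgeR, and of 0.00223 to 0.686 over 21 alternatives. Pltp, the phospholipid transfer protein, was at 4.28, 1.52 and 1.09 CPM with IL1b and at 12, 5.26 and 7.36 CPM with IL21. Cdkn2c encodes the cell cycle inhibitor p18INK4C, and was at 16, 8.32 and 7.75 CPM with IL1b and at 27.2, 19.3 and 22.6 CPM with IL21. Tbc1d4, a Rab GTPase-activating protein of glucose transporter traffic, differed by -1.29 ± 0.23. The remaining 3, Srgap3, Rasgef1b and Sema6d, encode regulators of small GTPases or, for Sema6d, a semaphorin, and differed by -1.47, -1.35 and -1.12. Sema6d and Tns4 were not called by DESeq2 (adjusted p = 0.308 and 0.0521), and over 21 alternatives their adjusted p reached 0.338 and 0.729. Over the 15 lower genes the log2 difference ran from -2.04 to -1.12, with a median of -1.41.

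Course moved with these levels in both cocktails. Course 4 was the lowest library for 12 of the 15 higher genes in the IL1b cocktail and for 10 in the IL21 cocktail. It was the highest library for 13 and 12 of the 15 lower genes. The direction of the difference was the same within each of the 3 courses for all 30 genes, which their choice by non-overlapping libraries fixes. The part of course in these differences was not tested in the fit described here. Fits with course as a block are given with the alternatives.

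Turning to the pathways, 5 of 26 genes of a list of NF-κB subunits, inhibitors and targets were called higher with IL1b and none lower, against 0.747% and 1.69% of all genes tested. The same shares are the background for the count of calls in each list below. The median log2 difference of the NF-κB list was 0.17 against -0.01 over all genes. The 5 called members were inhibitors and adaptors of the pathway, and no Rel subunit was among them. Nfkbiz encodes IκBζ, a nuclear IκB that acts as a cofactor at NF-κB target genes in Th17 cells. It was at 60.4, 76.9 and 104 CPM with IL1b and at 15.4, 21.4 and 19.1 CPM with IL21, a difference of 2.06 ± 0.17 (SE, n = 3; adjusted p = 1.34e-14, limma). The lowest IL1b library of Nfkbiz was thus well above the highest IL21 library.

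The other 4 were negative regulators or adaptors of the pathway with smaller changes. Tnfaip3 encodes the ubiquitin-editing enzyme A20. Tnfaip3 was at 97.2, 128 and 158 CPM with IL1b and at 44.7, 71.9 and 65.6 CPM with IL21. Nfkbia encodes IκBα and was at 186, 237 and 311 CPM with IL1b and at 92.6, 179 and 151 CPM with IL21. The IL1b library of course 4 came close to the highest IL21 library of Nfkbia. Traf1, a TNF receptor-associated factor, rose by 0.69 ± 0.16, and Tnip1, a partner of A20, by 0.49 ± 0.11 (log2 ± SE, n = 3). The list's count fell to 1 higher, Nfkbiz, when the IL1b library of course 6, the IL21 library of course 4 or all of course 6 was left out, and to 2 without course 4.

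Zc3h12a encodes Regnase-1, an RNase that degrades cytokine mRNAs. It lies outside the naming rule and the lists and was chosen after its values were seen. Its level was 82.8 ± 8.68 CPM (SD, n = 3) with IL1b and 31.5 ± 0.47 CPM with IL21, a difference of 1.38 ± 0.10 (SE; adjusted p = 4.91e-16, limma). The lowest IL1b library was at 74.2 CPM and the highest IL21 library at 32 CPM.

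Promoters of tested genes were searched for a κB motif, GGG and TTTCC with NN between them, on both strands. The window of each RefSeq transcript start (GRCm38.p6) ran from 250 bases before to 50 bases after the start. The letters were in 6 of 116 promoters of genes called higher (5.17%), in 1.71% of those of genes called lower and in 1.75% of all 12676 promoters of tested genes. The 2 promoters of Il1rn that held the letters, not all of its promoters, share the same site. Counted by gene, the letters were in 6.33% of genes called higher, 2.33% of those called lower and 2.1% of all. The 5 genes called higher that hold them were Il1rn, Il9, Nfkbia, Tnfaip3 and Tnfrsf25. To show such letters in genes that rose, the 80 bases before the start of Tnfaip3, Nfkbia and Il9 are given, 5′ to 3′ on the strand of the gene, with the match in capitals. The match reads as the searched letters in Il9 and as their reverse complement in the other two.
Tnfaip3: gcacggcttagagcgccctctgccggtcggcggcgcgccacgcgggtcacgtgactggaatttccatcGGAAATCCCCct
Nfkbia: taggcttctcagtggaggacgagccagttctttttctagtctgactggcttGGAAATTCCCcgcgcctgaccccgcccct
Il9: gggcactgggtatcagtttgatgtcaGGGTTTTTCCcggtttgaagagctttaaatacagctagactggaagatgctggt
They lie on the minus strand at chr10:19015411-19015490, chr12:55492648-55492727 and chr13:56482258-56482337 of GRCm38.p6. The matches start 12, 29 and 54 bases before the transcript start. The STAT letters TTCNNNGAA were in 5.17% of promoters of genes called higher, 5.98% of those called lower and 6.97% of all. The AP-1 letters TGANTCA were in 11.2%, 10.7% and 5.18%. Matches of different motifs may share bases. A match is a description of letters, not of binding.

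In the IL-1 receptor family and its signalling genes, 2 of 21 were called higher and none lower. Il1rn encodes the IL-1 receptor antagonist, which occupies the receptor without signalling. It was at 44.2, 59 and 73.7 CPM with IL1b and at 11.9, 19 and 22 CPM with IL21, a difference of 1.73 ± 0.24 (SE, n = 3; adjusted p = 5.01e-07, limma). Every IL1b library of Il1rn was at least at the level of 44.2 CPM, above the highest IL21 library at 22 CPM. Tab2, an adaptor of the kinase TAK1, rose by 0.39 ± 0.09. The signalling receptor Il1r1 was at 56.1, 75.7 and 68 CPM with IL1b and at 86.2, 119 and 84.2 CPM with IL21. These levels of Il1r1 did not overlap, but the difference of -0.52 ± 0.24 missed the threshold (adjusted p = 0.4, limma).

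None of the 12 genes of the IL-21 receptor, the common γ chain family and its kinases was called by limma, edgeR or DESeq2 on all libraries, and 6 had an unadjusted limma p below 0.05. Without the IL1b library of course 4, limma called Il21r (adjusted p = 0.0288), Il2rb (0.0494) and Il4ra (0.0314) lower with IL1b. In the full fit Il21r was at 264, 212 and 200 CPM with IL1b and at 262, 267 and 257 CPM with IL21, an overlap. Il7r, the IL-7 receptor chain, was at 48.7, 44.1 and 45.1 CPM with IL1b and at 65.4, 68.5 and 62.9 CPM with IL21. The libraries of Il7r were separate, and the difference of -0.51 ± 0.18 was not called (adjusted p = 0.172, limma). It was called with the 9 groups at 24 to 72 h in the fit (0.0378) and with course as a block on the libraries compared (0.0184), and Jak3 with the block over all groups (0.0172). The common γ chain gene Il2rg lay at 135 to 187 CPM over the 6 libraries, and its log2 difference was 0.05 ± 0.08. Jak1, Jak3 and Tyk2, kinases of these receptors, differed by -0.09, -0.25 and -0.06. Il21 itself was at 229, 264 and 278 CPM with IL1b and at 264, 488 and 426 CPM with IL21. The groups of Il21 overlapped through course 4 of the IL21 cocktail, and the difference of -0.57 ± 0.28 was not called (adjusted p = 0.464, limma). The list's median log2 difference was -0.23.

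Among STAT factors, SOCS inhibitors and STAT3 targets, 2 of 19 genes were called higher and 1 lower. Pim2, a survival kinase induced by cytokines, was at 217, 288 and 395 CPM with IL1b and at 105, 192 and 163 CPM with IL21. Stat5a, which carries IL-2 family signals, was at 357, 381 and 455 CPM with IL1b and at 239, 240 and 247 CPM with IL21, a difference of 0.71 ± 0.13 (SE, n = 3; adjusted p = 0.000225, limma). The IL21 libraries of Stat5a lay within a few CPM of one another. Il6st, which encodes gp130, the signalling chain of the IL-6 receptor, was at 292, 213 and 182 CPM with IL1b and at 390, 333 and 335 CPM with IL21. Il6st was not called when course 5, course 6, the IL1b library of either course or the IL21 library of course 4 was left out.

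**Figure D3:**
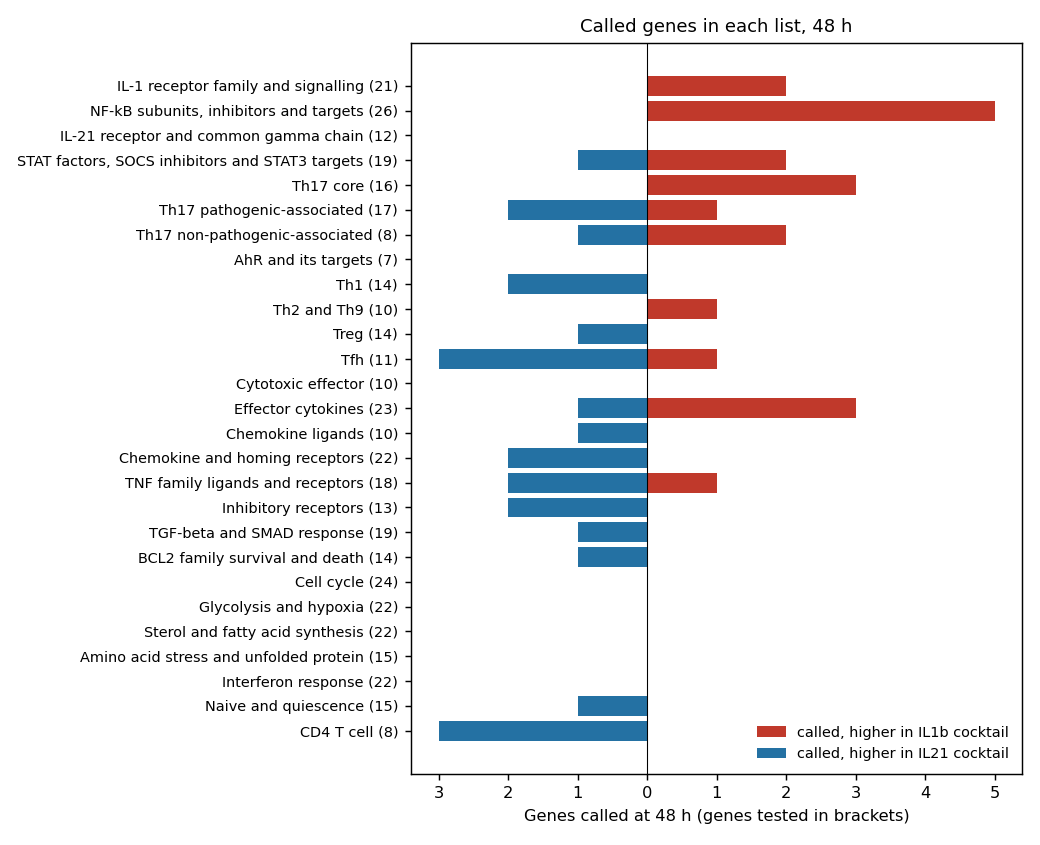
Number of called genes at 48 h in each gene list (horizontal axis, to the right higher with IL1b and to the left higher with IL21; genes tested in brackets). The NF-κB list has 5 of 26 to the right, and no gene was called in cell cycle, glycolysis, sterol, amino acid stress, interferon, cytotoxic, AhR and IL-21 receptor lists.

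Of the 16 genes of the Th17 core list, 3 were called higher with IL1b and none lower: Il22, Il24 and Batf. Il24, a cytokine of the IL-20 family, was at 22.7, 14 and 15.2 CPM with IL1b and at 10.2, 5.02 and 9.5 CPM with IL21. Its difference was 1.05 ± 0.23 (SE, n = 3; adjusted p = 0.00281, limma), and it was not called by edgeR (adjusted p = 0.0501) or DESeq2 (0.149), with 0.000746 to 0.564 over 21 alternatives. Batf, a basic leucine zipper factor required for Th17 differentiation, was at 106, 139 and 171 CPM with IL1b and at 77.5, 98.3 and 97.7 CPM with IL21. Each leave-out of a course or of a library took at least 1 call from the list except that of the IL1b library of course 4, where 2 genes were also called lower.

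The main Th17 cytokines were abundant in both cocktails and not called. Il17f was at 2330, 2370 and 2450 CPM with IL1b and at 2010, 2280 and 2320 CPM with IL21, a difference of 0.12 ± 0.64 (SE, n = 3; adjusted p = 0.983, limma). The SE of Il17f comes from all 28 groups, and is wide beside its spread at 48 h. Il17a was at 126, 238 and 233 CPM with IL1b and at 78, 178 and 136 CPM with IL21. The libraries of Il17a overlapped, but the IL1b library was above the IL21 library in all 3 courses. The difference was 0.63 ± 0.44 (SE; adjusted p = 0.71, limma). With course as a block and only the libraries compared in the fit, Il17a was called (adjusted p = 0.0146), as were Il23r (0.0167), Il10 (0.016) and Il1r1 (0.0275) of the same list, the last 3 lower with IL1b.

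Further transcription factors of the list were not called either. Rora, a nuclear receptor, was at 196, 152 and 131 CPM with IL1b and at 237, 175 and 184 CPM with IL21. Maf, a factor that promotes Il10 and Il21, was at 576, 331 and 270 CPM with IL1b and at 734, 512 and 553 CPM with IL21. Ahr, the aryl hydrocarbon receptor, was at 409, 330 and 287 CPM with IL1b and at 437, 443 and 430 CPM with IL21. The log2 differences were -0.32 ± 0.16 for Rora, -0.67 ± 0.24 for Maf and -0.37 ± 0.16 for Ahr. Maf was called lower with course as a block over all groups (adjusted p = 0.0216) and without the IL1b library of course 4 (0.00744), where Il10 was too (0.0487). Irf4 lay at 1320 to 1720 CPM over the 6 libraries. None of the 7 genes of AhR and its targets was called by limma, edgeR or DESeq2, and 2 had an unadjusted p below 0.05.

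Il23r, the receptor chain for IL-23, was at 8.7, 34 and 22.5 CPM with IL1b and at 13.7, 60.5 and 32.3 CPM with IL21. Within each course Il23r was lower with IL1b, while course 4 lay far below the others in both cocktails, and the difference of -0.65 ± 0.40 was not called (adjusted p = 0.627, limma). Il10, which encodes an anti-inflammatory cytokine, was at 49.6, 23.7 and 31.5 CPM with IL1b and at 69.4, 46.8 and 71.7 CPM with IL21. The chemokine gene Ccl20 differed by -0.64 ± 0.27, and that of its receptor, Ccr6, by 0.29 ± 0.28. Over the 16 genes the median log2 difference was -0.34, with 6 positive and 10 negative.

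The lists for pathogenic-associated and non-pathogenic-associated Th17 genes each had calls in both directions. Of 17 pathogenic-associated genes, 1 was called higher (Il22) and 2 lower (Lgals3 and Ccl4). Ccl4, an inflammatory chemokine, was at 4.03, 5.4 and 7.52 CPM with IL1b and at 7.46, 18.7 and 15.1 CPM with IL21, a narrow overlap. Ccl4 lost its call in 8 of 21 alternatives. Of 8 non-pathogenic-associated genes, 2 were called higher (Il9 and Il1rn) and 1 lower (Il6st). The median log2 difference was -0.14 in the pathogenic-associated list (6 positive, 11 negative) and -0.47 in the non-pathogenic-associated list (2 positive, 6 negative). An unadjusted limma p below 0.05 was found in 7 of 17 and 7 of 8 genes in turn, against 10.6% of all genes tested. Both lists share members with the Th17 core list.

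In the follicular helper (Tfh) list, 3 of 11 genes were called lower with IL1b and 1 higher, against 1.69% and 0.747% of all genes tested. Over the 11 genes the median log2 difference was 0.06, with 6 positive and 5 negative, so the list as a whole was not lower. Cxcr5, the receptor that takes T cells to B cell follicles, was at 17, 4.69 and 3.5 CPM with IL1b and at 51.8, 16.9 and 22.8 CPM with IL21. The IL1b library of course 4 just overlapped the IL21 library of course 5, yet Cxcr5 was lower with IL1b within each course. The difference of Cxcr5 was -1.96 ± 0.37 (SE, n = 3; adjusted p = 0.000247, limma), with an adjusted p of 0.671 by limma on only the libraries compared. Tox, a nuclear factor of Tfh and exhausted T cells, was at 9.79, 11.4 and 10.2 CPM with IL1b and at 20.1, 27.4 and 21.7 CPM with IL21. Pdcd1, which encodes the inhibitory receptor PD-1, was at 53, 45.2 and 53 CPM with IL1b and at 102, 98.8 and 92.1 CPM with IL21. The libraries of Tox and Pdcd1 lay close together in each cocktail and did not overlap between them. Icos, a costimulatory receptor, was higher with IL1b: 232, 295 and 391 CPM against 135, 235 and 181 CPM. Without course 4 or course 6 the list held 2 called lower and none higher.

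Of 13 inhibitory receptor genes, 2 were lower with IL1b and none higher, Pdcd1 and Lag3. Lag3, which binds MHC class II, was at 25.3, 32.2 and 36.4 CPM with IL1b and at 53.9, 65.4 and 56 CPM with IL21, a difference of -0.90 ± 0.21 (SE, n = 3; adjusted p = 0.00577, limma). Neither was called without course 4 or without course 5, while without the IL1b library of course 4 the list held 2 called higher and 4 lower. In the Th1 list, 2 of 14 genes were lower. Of these, Hlx, a homeobox factor of Th1 cells, stayed under 2 CPM in each library, overlapped between cocktails, and was not called by edgeR (adjusted p = 0.105, with 3.28e-05 to 0.887 over 20 alternatives).

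Of 14 Treg genes, 1 was lower with IL1b: Nrp1, the co-receptor neuropilin 1, by -0.76 ± 0.20. Over all genes tested 1.69% were called lower. Nrp1 lost its call in 8 of 21 alternatives, with an adjusted p of 0.771 by limma on only the libraries compared. In the TGF-beta list 1 of 19 was lower: Smad3, a signal transducer of TGF-beta, by -0.27 ± 0.08. Bcl2l11, which encodes the pro-apoptotic protein BIM, was the only call among 14 BCL2 family genes, at 23.9, 17.8 and 17.8 CPM with IL1b and 33, 29 and 28.8 CPM with IL21. Smad3 and Bcl2l11 were not called by edgeR (adjusted p = 0.0761 and 0.0606), and their adjusted p reached 0.964 and 0.395 over 21 alternatives. Csf1, the macrophage growth factor gene, was at 13.2, 3.7 and 3.26 CPM with IL1b and at 33, 8.62 and 13.4 CPM with IL21, with an overlap between the cocktails. Its adjusted p was 0.028 by limma and 0.0527 by edgeR, and 0.000533 to 0.976 over 21 alternatives. Among 18 genes of the TNF family, the costimulatory receptor Cd27 and the death ligand Tnfsf10 (TRAIL) were lower, by -0.64 ± 0.14 and -0.70 ± 0.16. Tnfrsf25, the receptor of TL1A, was higher by 0.37 ± 0.09, at 111 to 147 CPM against 92.9 to 103 CPM. Cd27, Tnfsf10 and Tnfrsf25 each lost the call in 6 of 21 alternatives. Of 15 naive and quiescence genes, 1 was lower: Bach2, a repressor of effector genes, by -0.34 ± 0.09. Its libraries overlapped, at 298 to 440 CPM with IL1b and 410 to 534 CPM with IL21. Bach2 lost its call in 9 of 21 alternatives, with an adjusted p of 0.998 by limma on only the libraries compared.

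Of the 8 CD4 T cell markers, 3 were called lower with IL1b: Cd3g, Cd3e and Lck. Cd3g, a chain of the T cell receptor complex, was at 74.2, 50.1 and 65.8 CPM with IL1b and at 94.1, 91.9 and 93.3 CPM with IL21, a difference of -0.57 ± 0.11 (SE, n = 3; adjusted p = 0.000706, limma). Cd3e and the kinase gene Lck were lower by -0.37 ± 0.11 and -0.20 ± 0.06. The receptor genes Cd3d and Trac, at -0.22 and -0.23, were not called. All 8 markers had a negative difference, and the count of calls was 0 without course 5 or without the IL1b library of course 5. Their part in the other differences was not tested.

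Growth and metabolism lists showed no called gene at 48 h. In the cell cycle list (24 genes) the log2 differences ran from -0.16 to 0.09, and no gene had an unadjusted p below 0.05. The sterol and fatty acid synthesis list (22 genes) ran from -0.14 to 0.33, also with no unadjusted p below 0.05. Among 22 glycolysis and hypoxia genes the median was 0.11 and 3 had an unadjusted p below 0.05. Among 22 interferon response genes 4 did, and among 15 genes of amino acid stress and the unfolded protein response 3 did. No gene of these 5 lists was called by edgeR or DESeq2. The 10 cytotoxic effector genes likewise gave no call by any of the 3 tools and no unadjusted p below 0.05.

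The cocktail with both cytokines was then compared with each single cocktail. Adding IL1b to the IL21 cocktail changed 192 genes (1.29%), 92 higher (0.619%) and 100 lower (0.673%). Adding IL21 to the IL1b cocktail gave no call by limma, edgeR or DESeq2, while 193 genes (1.3%) had an unadjusted limma p below 0.05. Without the filter on low values 24 genes were called. These comparisons share libraries with each other and with the comparison of the single cocktails, so their values are set side by side only.

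Il22 was at 8.28, 18.8 and 14.7 CPM with both cytokines, a difference of 2.67 ± 0.31 from the IL21 cocktail and -0.35 ± 0.31 from the IL1b cocktail (log2 ± SE, n = 3). Nfkbiz was at 53, 96.8 and 73.9 CPM with both, 1.94 ± 0.17 above the IL21 cocktail and -0.12 ± 0.17 from the IL1b cocktail. Angptl2 was at 85.9, 30.2 and 36.9 CPM with both, -1.66 ± 0.39 from the IL21 cocktail and 0.38 ± 0.39 from the IL1b cocktail. In these 3 genes the libraries with both cytokines lay in or near the range of the IL1b cocktail. Of the 30 named genes, 25 were called on adding IL1b, 14 of the 15 higher and 11 of the 15 lower. On adding IL21 their differences ran from -0.40 to 0.30 in the 15 higher genes and from 0.00 to 0.52 in the 15 lower genes, with SEs of 0.16 to 0.55, so small effects of IL21 were not detectable at this spread.

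**Figure D4:**
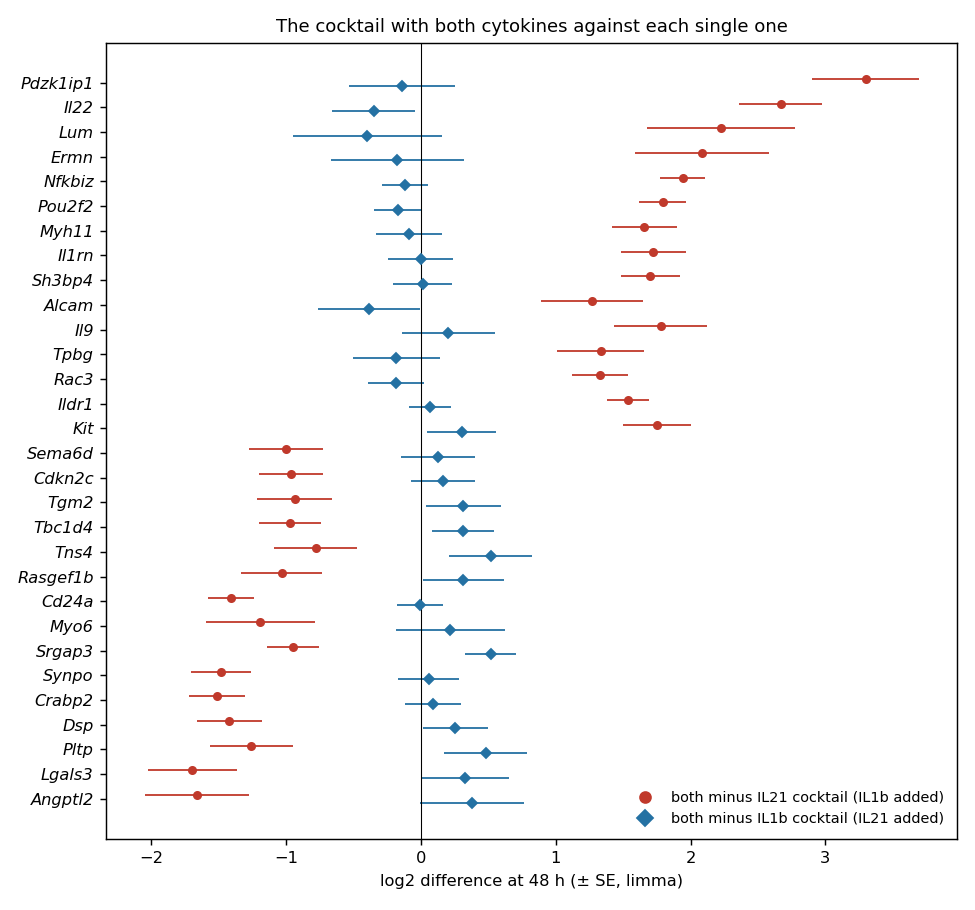
Log2 difference ± SE at 48 h (horizontal axis) of the cocktail with both cytokines from the IL21 cocktail (red circles, IL1b added) and from the IL1b cocktail (blue diamonds, IL21 added) for the 30 named genes. The red circles reach from -1.69 to 3.30, and the blue diamonds stay between -0.40 and 0.52 with none called.

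The same cocktails differed less at 24 h and more at 72 h. At 24 h 36 genes were called (0.242%), 26 higher (0.175%) and 10 lower (0.0673%). At 72 h 1468 genes were called (9.88%), 765 higher (5.15%) and 703 lower (4.73%). These times use other libraries than those at 48 h. Of the 362 genes called at 48 h, 338 (93.4%) had the same sign at 24 h and 348 (96.1%) at 72 h. The share with the same sign over all genes tested was not computed, so these shares stand without a background. Genes called at both 48 and 24 h numbered 28, or 7.73% of the calls at 48 h and 77.8% of those at 24 h. Genes called at both 48 and 72 h numbered 252, or 69.6% of the calls at 48 h and 17.2% of those at 72 h, and 251 of them had the same sign. The median difference of the genes called higher at 48 h came to 0.35, 0.88 and 1.06 at 24, 48 and 72 h in turn. For those called lower it came to -0.25, -0.64 and -0.49. The values at 48 h were used to choose the genes, so those medians are a description.

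Of the 30 named genes, 8 were called at 24 h, all of them higher, and 29 at 72 h. Nfkbiz differed by 1.76 at 24 h, 2.06 at 48 h and 1.76 at 72 h, and Kit by 1.79, 1.45 and 1.72. Il22 differed by 2.07, 3.02 and 2.93. Il22 was called at each of these times, with a median level with IL1b of 3.77 CPM at 24 h and 17.9 CPM at 72 h. Among the lower genes Tgm2 was the exception at 72 h, at -0.58 (adjusted p = 0.194, limma). Il17a was called at 72 h (1.80, adjusted p = 0.00315) and Ccr6 too (1.31, adjusted p = 0.000627), but the test of 48 h against 72 h called neither (adjusted p = 0.905 and 0.576).

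The change of the difference itself was tested between times. The difference at 48 h was unlike that at 24 h for 12 genes (0.0808%), 8 more positive (0.0538%) and 4 more negative (0.0269%) at 48 h. It was unlike that at 72 h for 44 genes (0.296%), 10 more positive (0.0673%) and 34 more negative (0.229%) at 48 h. These counts fell to 2 and 4 by edgeR and to 4 and 7 by DESeq2. Xkrx, an XK-related gene, was level at 24 h, with medians of 23.2 CPM with IL1b and 23.1 CPM with IL21. At 48 h Xkrx stood at 15.6, 14.9 and 16 CPM with IL1b and at 6.72, 6.72 and 6.56 CPM with IL21, and the change of the difference was 1.16 (adjusted p = 0.000109 by edgeR, 1.52e-07 to 0.058 over 15 alternatives). Xkrx was lower at 48 h than at 24 h in both cocktails, and by more with IL21. Crabp2 was also level at 24 h, with medians of 3.29 and 3.12 CPM, before the levels at 48 h given above.

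Il1rn and Il24 went on to differ more at 72 h. At 72 h the median of Il1rn was 21.1 CPM with IL1b and 2.1 CPM with IL21, and the difference went from 1.73 at 48 h to 3.18 at 72 h. Il24 reached medians of 58.6 CPM with IL1b and 10.1 CPM with IL21 at 72 h, a difference of 2.41 against 1.05 at 48 h. For Il1rn the change between 48 and 72 h held by edgeR (adjusted p = 0.0182) and DESeq2 (0.0269). For Il24 it did not (0.596 and 0.811). Over 15 alternatives the adjusted p of this test ran up to 1 for each. Lta, which encodes lymphotoxin alpha, had overlapping levels of 247 to 382 CPM with IL1b and 264 to 292 CPM with IL21 at 48 h, and differed by 0.95 at 72 h.

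**Figure D5:**
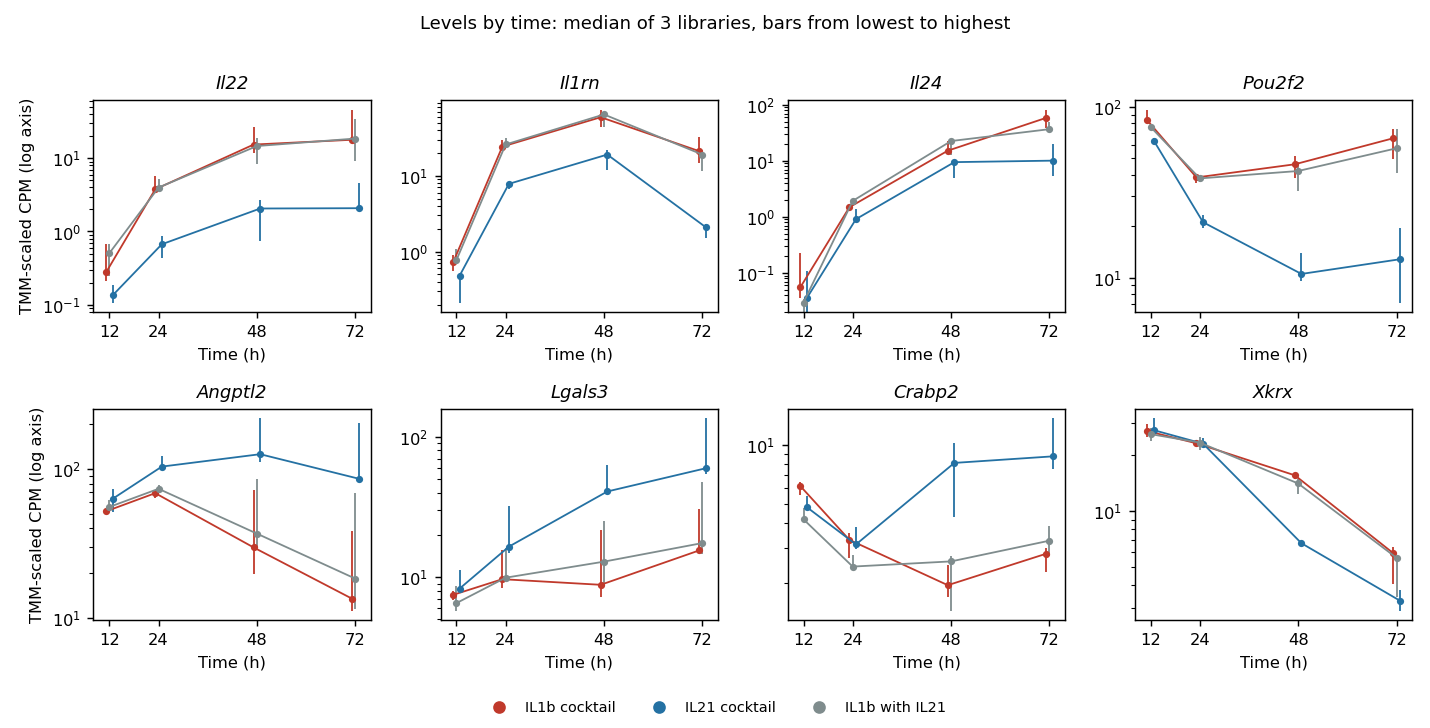
Level of 8 genes (vertical log axis, TMM-scaled CPM) at 12, 24, 48 and 72 h in the 3 cocktails, as the median of 3 libraries with bars from the lowest to the highest. Il22 is higher with IL1b at each time shown, Xkrx and Crabp2 are level at 24 h and apart at 48 h, and Il1rn has a lower median at 72 h than at 48 h in all 3 cocktails.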

How the data were processed

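RNA was sequenced from sorted naive CD4 T cells and their cultures in 141 libraries. Per the submitters' processing notes, TopHat and HTSeq were used, with mm9 and also GRCh37 (human) listed as builds. Versions, roles and whether counting used strand are not stated, so overlapping and antisense genes cannot be told apart. The values the authors deposited are CPM per gene symbol, with no positions. Each column's smallest value divided the others into whole reads for 100% of values (tolerance 0.001). No column was left out, and the 37 mitochondrial genes were at 0 reads.

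Tested were 14859 of 46517 genes, those reaching 1 CPM in 3 or more libraries of courses 4 to 6. The fit was limma with an intensity trend on log2(TMM-scaled CPM + 0.5), a mean per group, 84 libraries and 56 residual degrees of freedom. Adjusted p-values come from limma where no other tool is named. edgeR and DESeq2 on the recovered reads, other scalings, pseudocounts, filters, blocks and left-out libraries were alternatives. Replicate libraries differed by 7.72 to 46.5 times Poisson noise, so none was a copy. R 4.3.3, limma 3.58.1, edgeR 4.0.16 and DESeq2 1.42.0 were used. The fits were also run on simulated data with the same spread setting for every gene and no course effect. That run cannot show how the fits handle the spread at 48 h.

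Named genes were the 15 largest called changes in each direction with at least 5 CPM in the higher group and no overlap, all genes of the Th17 core and IL-21 receptor lists, every called gene of the IL-1, NF-κB and STAT lists, up to 5 called genes of each other list, and up to 5 per test between times. Clone and predicted symbols were skipped. Some genes that the rules picked are not reported here. The comparison, the 33 gene lists (written from general knowledge) and the rules were chosen with earlier results of these data known. Lists overlap and are described by counts, with no set test. Promoters came from RefSeq (GRCm38.p6), where 9956 of the tested genes had an entry.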

Additional observations from a re-analysis of the deposited data

Results flagged for a closer look

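For 9 named genes the difference between the cocktails at 48 h was itself unlike that at another time, by limma over all genes tested. The difference at 48 h minus that at 24 h was 1.552 on the log2 scale in Myh11, 1.162 in Xkrx, 1.131 in Pou2f2 and -1.549 in Crabp2. Of these, Xkrx (adjusted p = 0.000109 by edgeR) and Crabp2 (0.00855) were also called by edgeR, and Myh11 (1) and Pou2f2 (0.0728) were not. Myh11 was under 1 CPM in all 6 libraries of the 2 cocktails at 24 h, with at most 0.318 CPM.

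The difference at 48 h minus that at 72 h was -1.454 in Il1rn, -1.357 in Il24 and -0.9066 in Lta, where the IL1b cocktail was further above at 72 h. It was 0.9827 in Fam49a and 0.8115 in Vipr1, where the sign turned from positive at 48 h to negative at 72 h. The difference of Fam49a was 0.70 at 48 h and -0.28 at 72 h (adjusted p = 0.31, limma), and that of Vipr1 was 0.18 at 48 h (adjusted p = 0.734) and -0.64 at 72 h. By edgeR only Il1rn (adjusted p = 0.0182) was called among the 5, and by DESeq2 Il1rn, Fam49a and Vipr1 were. Over 15 alternatives the adjusted p ran from 1.52e-07 to 0.058 for Xkrx and from 0.00135 to 0.793 for Crabp2, and it reached 1 for each of the other 7 genes. No explanation was tested.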

How the results depend on the processing

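No named gene turned its direction while called under any of 21 alternatives, but many of these could not have turned it. Fits on fewer groups or with course as a block left each log2 difference unchanged. For genes chosen by non-overlapping libraries, leaving out libraries could not turn the direction either. Counts of calls did change. The comparison at 48 h gave 362 calls, 298 by edgeR, 293 by edgeR with DESeq2 size factors, 321 by DESeq2 and 312 to 369 under other scalings, pseudocounts and filters. It gave 7 with only the libraries compared and 155 with only the 9 groups at 24 to 72 h in the fit, an alternative added after seeing the data. Leaving out a course gave 127 to 294 calls and leaving out a single library 165 to 868, highest without the IL1b library of course 4 and lowest without that of course 6. The lone arms were assumed to vary like the other groups. With course as a replicate block the count was 472 over all groups and 249 with only the libraries compared. Courses share a number with no stated source. Deviations of same-course libraries correlated at 0.54, 0.09 and 0.58 at 48 h, where course 5 correlated better with another course (0.21), at 0.38, 0.14 and 0.28 at 24 h and at 0.71, 0.66 and 0.50 at 72 h, where each library correlated best with its own course.

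IL1b added to the IL21 cocktail gave 192 calls, 8 with only the libraries compared, 507 with the replicate block there, 249 with the block over all groups, 97 with the 9 groups at 24 to 72 h and 88 to 150 without a course. IL21 added to the IL1b cocktail gave 0, and 24 without the filter. For the change from 24 h (12 calls), edgeR with either scaling, at least 5 CPM, only the libraries compared and the replicate block there each gave 2, the 9 groups 3, DESeq2 and a pseudocount of 0.1 gave 4, no filter 25, and leaving out a course 2 to 6. For the change from 72 h (44 calls) there were 4 by edgeR, 5 with DESeq2 size factors, 7 by DESeq2, 13 and 74 at pseudocounts of 0.1 and 1, 20 with at least 5 CPM, 149 with no filter, 0 with only the libraries compared (868 genes had an unadjusted p below 0.05 in the full fit), 12 with the replicate block there, 4 with the 9 groups and 21 to 29 without a course. The cause of these changes was not tested, beyond fewer samples or genes entering some fits. Of 61 named genes called at 48 h, 56 lost the call with only the libraries compared, 31 without course 6 and 37 with the 9 groups. Ildr1, Nfkbiz, Pou2f2 and Xkrx kept it in all 21. Whether depth limits genes near 1 CPM was not tested.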

Other observations

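Further called genes outside the naming rule were chosen after their values were seen, and all adjusted p-values are from limma over 3 libraries per cocktail. Higher with IL1b were Sema4a, a semaphorin of immune cells, at 18.7 ± 6.93 against 7.58 ± 3.57 CPM (SD, n = 3; adjusted p = 0.000189), and Gadd45b, a stress and NF-κB target gene, at 80.9 ± 28.9 against 42.5 ± 9.17 CPM (0.00945). Cd69, an early activation marker, was at 69.7 ± 16.8 against 40.7 ± 6.65 CPM (0.0155), and the peptidase gene Dpp4 (CD26) at 23.6 ± 2.54 against 15.1 ± 1.07 CPM (0.00432). Nod2, which encodes a sensor of bacterial cell walls, was at 4.21 ± 1.55 against 2.05 ± 0.208 CPM (0.00117). In these 5 genes no library of a cocktail overlapped with the other.

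Lower with IL1b were Nfatc1, a factor of antigen receptor signalling, at 118 ± 10.9 against 199 ± 38.4 CPM (adjusted p = 3.91e-06), and Rgs16, a regulator of G protein signalling, at 24.9 ± 5.96 against 51.5 ± 7.58 CPM (0.00945), both without overlap. Ptpn22, a phosphatase that restrains T cell receptor signalling, was at 78.3 ± 27.2 against 129 ± 23.6 CPM (0.00134), and Runx2, a Runt family factor, at 8.13 ± 4.93 against 18.4 ± 7.38 CPM (0.000264). Pou2af1 encodes a coactivator of octamer factors. It was lower with IL1b, at 51.8 ± 30 against 99.4 ± 31.4 CPM (0.0341), while Pou2f2 was higher. The libraries of Ptpn22, Runx2 and Pou2af1 overlapped between cocktails. Nfatc1 kept its call in 20 of 21 alternatives, and Pou2af1 in 10.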
